A study of Mus musculus with 2 samples.

Results

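Genes that make and restrain the proteinases of the extracellular matrix were followed in mouse eyes. They are the inhibitors Timp1, Timp2 and Timp3, the matrix metalloproteinases Mmp2, Mmp3, Mmp9 and Mmp14, and the plasminogen activators Plau and Plat. They were taken by symbol from the gene rows of the deposited matrices, and all 9 members were found among 27998 rows. The cells came from the RPE-choroidal complex, that is the retinal pigment epithelium (RPE) with the vessel layer behind it, of C57BL/6J mice. One group received NaIO3 (sodium iodate, an oxidant that injures the RPE) by intravenous injection at 20 mg/kg, while the other had an equal volume of PBS, the buffered saline used as solvent. The labels give 7 days of treatment for both groups, with no age or sex, and the eyes of 6 mice were pooled in each group. Each group is therefore 1 library, so that treatment, pool and library cannot be told apart. No test between NaIO3 and PBS is possible, and every interval below covers counting error only.

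Matrix metalloproteinases cut collagens, laminins and other matrix proteins, and most are secreted as inactive precursors that must be cleaved. The TIMPs (tissue inhibitors of metalloproteinases) bind the active site of these enzymes, and TIMP3 stays bound to the matrix, above all in Bruch's membrane under the RPE, where human TIMP3 mutations cause Sorsby fundus dystrophy. Plau (urokinase) and Plat (tissue-type activator) turn plasminogen into plasmin, which cleaves fibrin and can activate several metalloproteinase precursors.

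The NaIO3 library held 4058 barcodes with 51168520 UMIs (unique molecular identifiers, 1 per captured RNA molecule), and the PBS library held 4618 barcodes with 51055592 UMIs. After filtering, 3812 NaIO3 cells and 4216 PBS cells remained, and 24 barcode sequences occurred in both libraries. Cells were clustered without the members and without the metalloproteinase, ADAM, regulator and plasminogen genes described below. The levels of these genes therefore did not form the clusters, while the matrix substrates described below were not left out. Clusters were named from marker genes, hence the ending "-like". RPE-like cells numbered 981 in NaIO3 and 2651 in PBS. Clusters whose best marker set was that of pigment genes such as Pmel and Dct, called pigment-led, held 1291 NaIO3 and 750 PBS cells. Of the 4 pigment-led clusters, number 13 was the one with no pigment marker among its 10 leading genes, at 1874 CPM of Dct, 209 CPM of Pmel and 699 CPM of Rpe65, against 1656, 257 and 3082 CPM in the main NaIO3 cluster, number 1. Macrophage-like cells numbered 457 in NaIO3 and 34 in PBS, and fibroblast-like cells numbered 44 in NaIO3 and 293 in PBS. Nearly all NaIO3 and PBS cells of the RPE-like class lay in different clusters (2, 16 and 26 in NaIO3, 0 and 6 in PBS), and so did those of the pigment-led class (1, 13 and 29 in NaIO3, 3 in PBS).

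A further cluster held 168 NaIO3 cells and 0 of the 4216 PBS cells, with an exact upper limit of 0.0875%. The libraries were clustered without integration, and nearly all RPE-like NaIO3 and PBS cells also lay in different clusters. The limit therefore covers membership of the cluster and does not bound the share of such cells in PBS. The cluster was singled out by its NaIO3 share and its Cdkn2a level, the highest of the 34 clusters. Both are therefore descriptions of this cluster. Its leading genes were Fbln2, Cdkn2b, Tagln, Col1a1, Cdkn2a, Cthrc1, Col1a2, Fn1, Timp1 and Postn. These are mostly matrix, contractile and cell-cycle-arrest genes. The cells were looked for as matrix-rich pigment cells, but their RPE genes were at the level of other cell types and their pigment genes were mixed. Summed RPE markers reached 6549 CPM (a count divided by the UMI total of its class, times 1000000) in this cluster, against 6817 CPM in macrophage-like cells, 7234 CPM in surface epithelium-like cells and 94186 CPM in RPE-like cells of the same library. The 7 pigment markers summed to 646 CPM in this cluster, against 207 CPM in macrophage-like, 223 CPM in surface epithelium-like and 1312 CPM in RPE-like cells. Of these, Dct stood at 199 CPM, against 108 CPM in macrophage-like and 114 CPM in surface epithelium-like cells, and Tyrp1 stood at 181 CPM, against 30.2 CPM in macrophage-like and 33.4 CPM in surface epithelium-like cells, while Pmel stood at 22.1 CPM in the cluster, 20.4 CPM in macrophage-like and 22.3 CPM in surface epithelium-like cells. Its best marker set was the mural one, with 5 of 7 markers at 2-fold or more over the median of the clusters. The mean log2 value was 2.10 for mural markers, 0.53 for pigment and -0.86 for RPE markers. Mural markers summed to 2376 CPM, nearly all of it Acta2 (1591 CPM) and Tagln (675 CPM), with Rgs5 at 2.17 CPM. Among the fibroblast markers, Col1a1 reached 795 CPM, Pdgfra 1.30 CPM and Dpt 0. The group is called the matrix-rich cluster here. Collagens and fibronectin helped to form it, so their levels in it are a description.

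The genomic place of the members bears on how their reads can be read. On GRCm38, Timp1 lies at chrX:20870166-20874735 on the + strand, inside Syn1 on the opposite strand, and Timp3 lies at chr10:86300372-86349506 on the + strand, inside Syn3 on the opposite strand. Timp2 (chr11:118301069-118355740, - strand) overlaps Cep295nl on the same strand. The strand setting of the counting is not given in the sources used here, so a part of these counts could come from the overlapping genes. The other 6 overlap no annotated gene. Mmp2 (chr8:92827291-92853420), Mmp3 (chr9:7445822-7455975), Mmp9 (chr2:164940780-164955850), Mmp14 (chr14:54431612-54445364), Plau (chr14:20836660-20843385) and Plat (chr8:22757727-22782844) all lie on the + strand.

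Promoter sequences (RefSeq, GRCm38.p6) were matched for 5 of the 9 members: Timp1, Timp2, Timp3, Mmp3 and Mmp14. The 3 shown here are those of Timp1 and Mmp14, both high in the matrix-rich cluster, and of Mmp3, which was low there and high in fibroblast-like cells. Each is the 250 bases before the annotated start, 5′ to 3′ on the gene's strand. Capitals mark the AP-1 motif TGANTCA and the Ets motif AGGAAG, both searched on both strands. The windows are chrX:20869916-20870165 (Timp1), chr14:54431348-54431597 (Mmp14) and chr9:7445572-7445821 (Mmp3), all on the + strand.
Timp1: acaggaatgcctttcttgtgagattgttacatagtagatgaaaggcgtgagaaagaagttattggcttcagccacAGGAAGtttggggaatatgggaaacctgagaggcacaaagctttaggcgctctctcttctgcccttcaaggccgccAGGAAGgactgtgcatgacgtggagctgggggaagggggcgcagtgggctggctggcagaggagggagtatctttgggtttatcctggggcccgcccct
Mmp14: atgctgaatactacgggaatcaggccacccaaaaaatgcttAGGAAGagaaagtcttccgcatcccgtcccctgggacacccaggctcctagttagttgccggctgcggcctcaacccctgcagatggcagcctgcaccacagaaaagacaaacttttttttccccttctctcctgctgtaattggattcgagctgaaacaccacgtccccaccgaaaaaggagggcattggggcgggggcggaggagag
Mmp3: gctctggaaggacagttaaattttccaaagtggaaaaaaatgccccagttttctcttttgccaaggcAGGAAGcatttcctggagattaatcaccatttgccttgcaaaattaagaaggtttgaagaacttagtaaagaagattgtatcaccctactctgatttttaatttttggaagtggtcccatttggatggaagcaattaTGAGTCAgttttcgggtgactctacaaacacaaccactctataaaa
The AP-1 motif was found in the Mmp3 window alone among the 5, beginning 46 bases before the start, and 6.75% of all 32851 RefSeq promoter windows of this length hold it. The letters TATAAA on the gene's strand were likewise found only in the Mmp3 window, beginning 7 bases before the annotated start, and 7.59% of all windows hold them. The Ets motif was found 2 times in the Timp1 window and 1 time each in those of Timp3, Mmp3 and Mmp14, and 29.5% of all windows hold it. The windows also differed in base composition, with 37.6% G and C in Mmp3, 54.4% in Timp1, 55.2% in Mmp14, 65.6% in Timp3 and 68.0% in Timp2. A match of letters is a description and does not show binding.

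In the NaIO3 library, the matrix-rich cluster carried most of the message of 4 of the members. It made up 4.41% of the cells and 9.52% of the UMIs, yet it held 72.8% of all Timp1 UMIs (1978 of 2718), 76.5% of Mmp9 (457 of 597), 64.2% of Mmp2 (516 of 804) and 51.7% of Mmp14 (947 of 1831). Of Plat it held 47.4% (282 of 595). Timp3 was spread over the pigment epithelium, with 48.6% of its NaIO3 UMIs in pigment-led and 39.7% in RPE-like cells. Macrophage-like cells held 37.1% of the Timp2 UMIs and 54.4% of the Plau UMIs (43 of 79). In the PBS library the fibroblast-like cells, 6.95% of all cells, held 89.5% of the Mmp3 UMIs (665 of 743), 76.8% of Mmp2 (258 of 336), 63.8% of Timp1 (37 of 58), 42.5% of Plat (134 of 315) and 40.6% of Mmp14 (181 of 446). Mmp9 and Plau were close to absent from the PBS library, with 6 and 5 UMIs over all its cells.

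**Figure D1:**
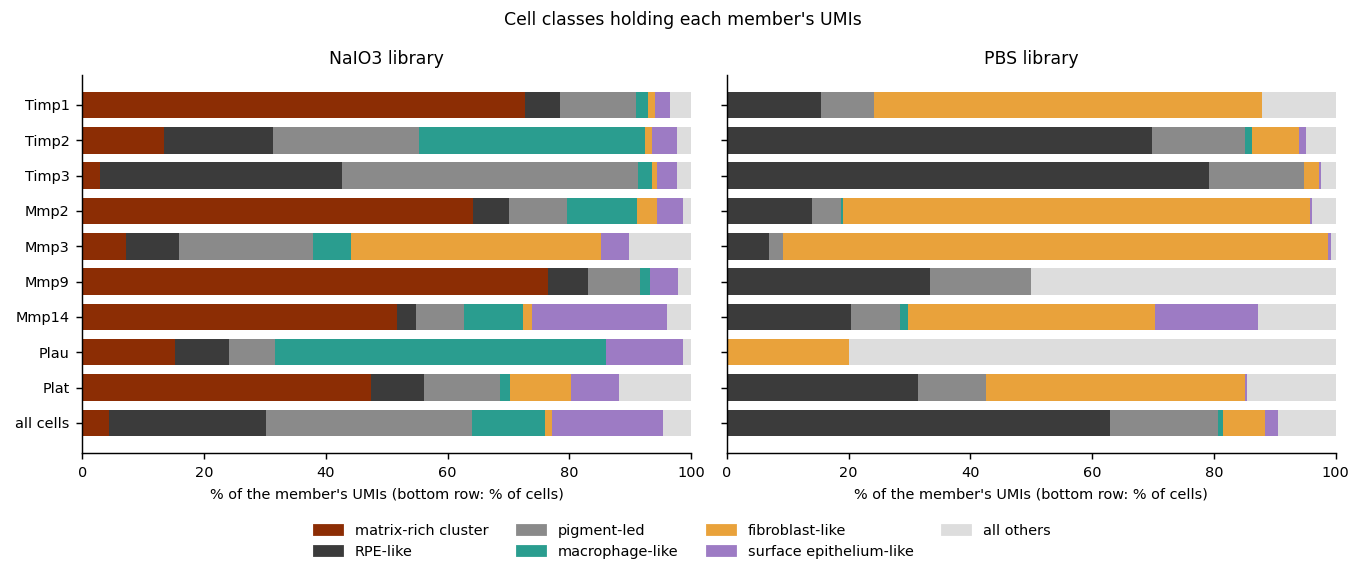
Share of each member's UMIs (horizontal axis, percent) held by each cell class in the NaIO3 library (left) and the PBS library (right), with the share of cells in the bottom row. The matrix-rich cluster holds 72.8% of the Timp1 and 76.5% of the Mmp9 UMIs in NaIO3 with 4.41% of the cells; the fibroblast-like cells hold 89.5% of the Mmp3 UMIs in PBS with 6.95% of the cells.

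Over whole libraries these shares gave 56.1 CPM of Timp1 in NaIO3 against 1.23 CPM in PBS, and 12.3 CPM of Mmp9 in NaIO3 against 0.127 CPM in PBS. Mmp14 stood at 37.8 CPM in NaIO3 against 9.43 CPM in PBS, and Mmp2 at 16.6 CPM in NaIO3 against 7.11 CPM in PBS. Plat stood at 12.3 CPM in NaIO3 against 6.66 CPM in PBS, and Timp2 at 581 CPM in NaIO3 against 317 CPM in PBS. Timp3 and Mmp3 ran the other way, with 2965 and 4.03 CPM in NaIO3 against 3800 and 15.7 CPM in PBS. These totals mix levels within a class with the make-up of each library, and the classes are taken apart in what follows.

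**Figure D2:**
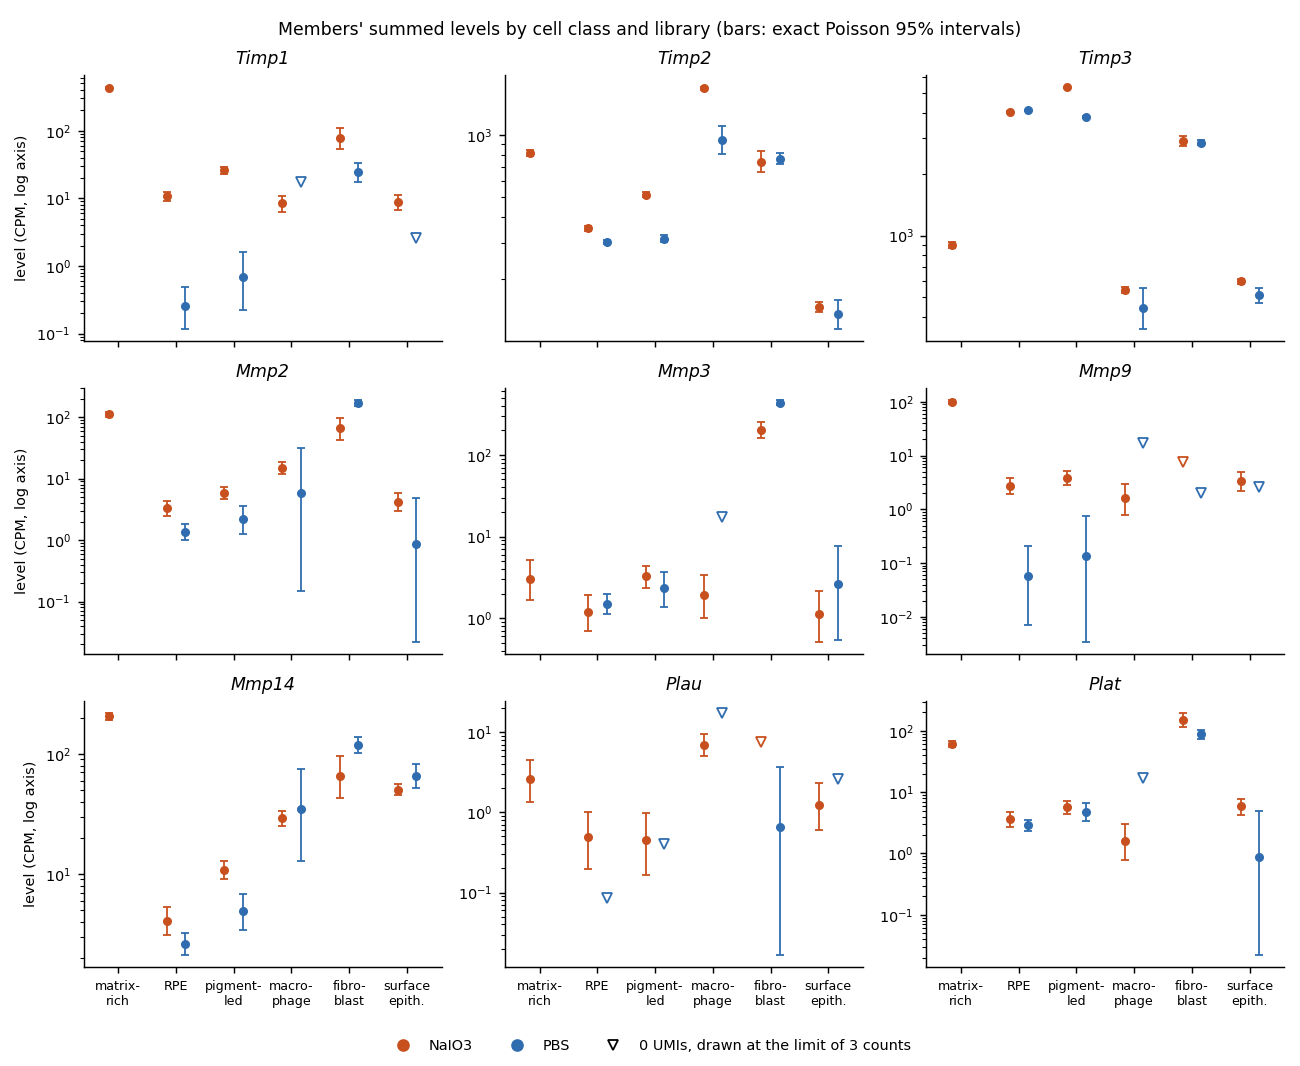
Summed level of each member (vertical axis, CPM, logarithmic) in 6 cell classes, NaIO3 in orange to the left of PBS in blue; bars are exact Poisson 95% intervals and open triangles mark 0 UMIs, drawn at the level of 3 counts. Timp1, Mmp9, Mmp2 and Mmp14 stand far above the RPE-like level in the matrix-rich cluster, Timp3 far below it, and Mmp3 is high in fibroblast-like cells alone among the classes drawn.

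The matrix-rich cluster was set against the RPE-like cells of the same NaIO3 library, which asks how the members differ between these cell groups within 1 library. Of the 8 members with at least 20 counts over both sides, 7 were higher by 2-fold or more and 1, Timp3, was lower. Of all 12640 genes measured in this comparison, 24.5% were higher and 11.7% lower by 2-fold or more, and the median log2 ratio was 4.56 for the members and 0.32 for all genes. The cluster was deeply sampled, with a median of 27501.5 UMIs per cell against 11927 in RPE-like cells, so shares of cells with a UMI are also given after each cell was thinned to 4000 UMIs.

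Among the inhibitors, Timp1, which many cells switch on after injury or cytokine signals, stood at 429 CPM in the matrix-rich cluster (411 to 449) and 10.8 CPM in RPE-like cells (9.13 to 12.6), a ratio of 39.9 (33.8 to 47.3). A Timp1 UMI was found in 95.2% of the matrix-rich cells and in 14.3% of the RPE-like cells, and after thinning in 70.8% and 4.08% of them. Timp1 was thus present in nearly every matrix-rich cell, and 31 of the 168 cells held 50% of its UMIs. Timp2, an inhibitor that also takes part in the activation of pro-MMP2 by MMP14, stood at 822 CPM in the matrix-rich cluster and 354 CPM in RPE-like cells, a ratio of 2.32 (2.23 to 2.42). Timp3, the matrix-bound inhibitor, stood at 900 CPM in the matrix-rich cluster and 4015 CPM in RPE-like cells, a ratio of 0.224 (0.217 to 0.231). The inhibitors therefore moved in opposite directions between these 2 groups of cells. The Timp3 level of the matrix-rich cluster was still above the 596 CPM of surface epithelium-like cells and the 542 CPM of macrophage-like cells.

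Among the proteinases, Mmp14, the membrane-bound enzyme that activates pro-MMP2, stood at 206 CPM in the matrix-rich cluster and 4.08 CPM in RPE-like cells, a ratio of 50.4 (38.6 to 66.8). Mmp2, gelatinase A, stood at 112 CPM in the matrix-rich cluster and 3.31 CPM in RPE-like cells, a ratio of 33.9 (25.1 to 46.7). Mmp9, gelatinase B, stood at 99.2 CPM in the matrix-rich cluster and 2.74 CPM in RPE-like cells, a ratio of 36.1 (26.0 to 51.5). A UMI of Mmp14 was found in 94.6% of the matrix-rich cells, of Mmp2 in 75.0% and of Mmp9 in 48.8%, and after thinning in 51.8%, 31.0% and 23.2% of them. The Mmp9 message was concentrated, with 13 of the 168 cells holding 50% of it and 1 cell holding 8.10%. Mmp3, stromelysin 1, which can cleave the precursor of MMP9, stood at 3.04 CPM in the matrix-rich cluster (14 UMIs) and 1.20 CPM in RPE-like cells (17 UMIs), a ratio of 2.54 (1.16 to 5.48) that rests on few counts.

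Of the plasminogen activators, Plat stood at 61.2 CPM in the matrix-rich cluster and 3.66 CPM in RPE-like cells, a ratio of 16.7 (12.4 to 22.9). Plau had 12 UMIs in the matrix-rich cluster and 7 in RPE-like cells, under the count minimum. Of Timp1, Mmp2, Mmp9, Mmp14 and Plat, a single matrix-rich cell often showed several: all 5 were detected in 47 of the 168 cells (28.0%), 4 of them in 62 cells, 3 in 39, 2 in 18 and 1 in 2. Detection in a cell depends on its depth, which was high here.

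The matrix-rich cells did not stay together in another clustering. When the NaIO3 library was clustered alone, again without the members, 88 of the 168 cells lay in a cluster of 89 and the other 80 in a cluster of 139. The cluster of 139 was named by its pigment marker set, with 47.2 CPM of Pmel and 250 CPM of Rpe65, against 20.1 and 269 CPM in the cluster of 89. The cluster of 89 had 170 CPM of Mmp9 (441 UMIs), against 7.86 CPM in the cluster of 139 (25 UMIs). Cdkn2a, a cell-cycle inhibitor used as a mark of senescence, stood at 831 CPM in the cluster of 89 and 184 CPM in the cluster of 139. Timp1 stood at 527 CPM in the cluster of 89 and 250 CPM in the cluster of 139, Mmp14 at 274 and 96.9 CPM, Mmp2 at 126 and 66.7 CPM, and Plat at 84.6 and 23.6 CPM, in the same order of clusters. All 5 members were thus higher in the smaller cluster, Mmp9 by the widest margin, while Timp3 (888 CPM in the cluster of 89 and 1142 CPM in the cluster of 139) was lower there. The rest of the cluster of 139 came from outside the matrix-rich cluster, so these are not differences between matrix-rich cells alone. Of Mmp9, all 168 matrix-rich cells held 457 UMIs, beside the 441 in the cluster of 89. Cdkn2a took part in forming these clusters, so its difference is a description.

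A pigment-led cluster of 90 NaIO3 cells, number 13, lay between the matrix-rich cluster and the main pigment-led cluster of 1174 NaIO3 cells, number 1, in several members. Its leading genes included Serpina3n, Htra1, Fbln2, Aebp1, Thbs1 and Lox. Timp1 stood at 127 CPM in cluster 13 and 10.2 CPM in cluster 1, a ratio of 12.5 (9.91 to 15.8). Mmp14 stood at 45.3 CPM in cluster 13 and 5.51 CPM in cluster 1, a ratio of 8.22 (5.82 to 11.7). Timp3 stood at 1924 CPM in cluster 13 and 5885 CPM in cluster 1, a ratio of 0.327 (0.316 to 0.338). Mmp9, Plat and Mmp3 were different. Mmp3 was highest in cluster 13, with 12.5 CPM (22 UMIs), against 1.81 CPM in cluster 1 (20 UMIs) and 3.04 CPM in the matrix-rich cluster, and 2 cells held 50% of the 43 Mmp3 UMIs of all pigment-led NaIO3 cells. Mmp9 had 11 UMIs and 6.23 CPM in cluster 13 and 3.62 CPM in cluster 1, a ratio of 1.72 (0.798 to 3.42), and Plat had 3.40 CPM in cluster 13 and 5.87 CPM in cluster 1, a ratio of 0.579 (0.205 to 1.33). Relative to cluster 13, the matrix-rich cluster was higher in Mmp9 by a ratio of 15.9 (8.81 to 32.1) and in Plat by a ratio of 18.0 (8.17 to 49.5).

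**Figure D3:**
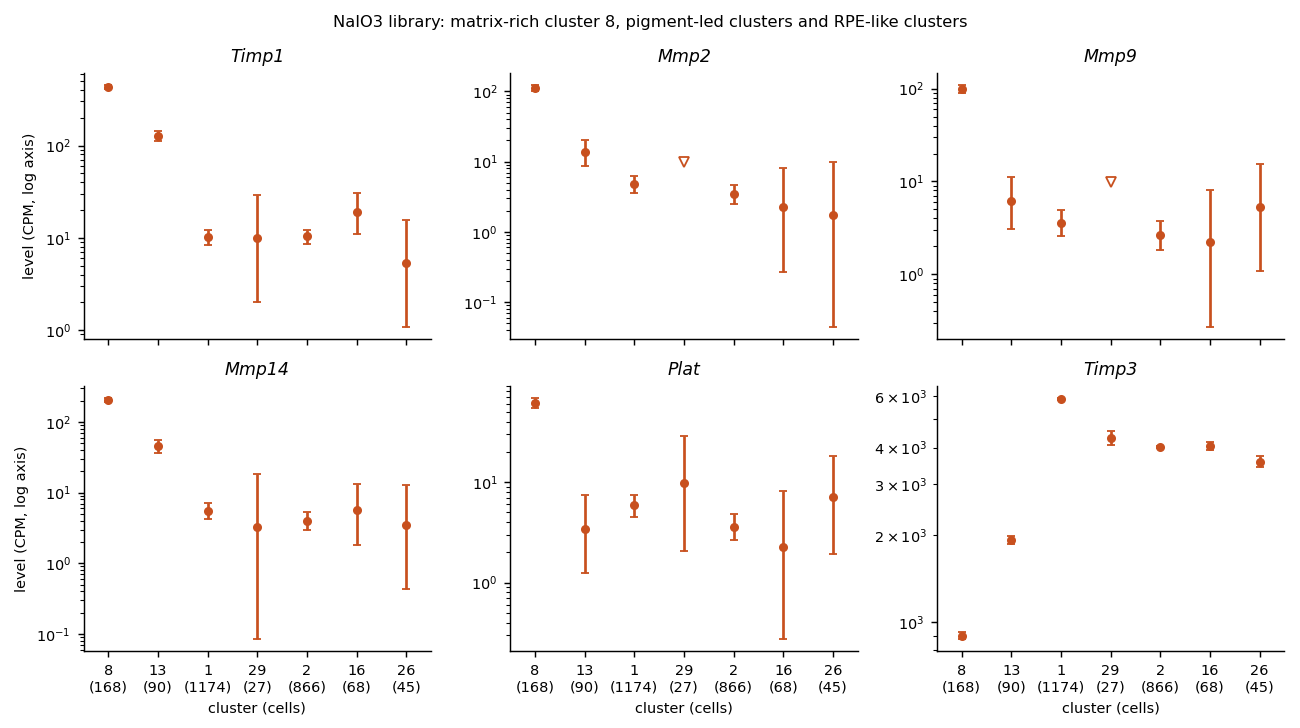
Level of 6 members (vertical axis, CPM, logarithmic) in the matrix-rich cluster 8, the pigment-led clusters 13, 1 and 29 and the RPE-like clusters 2, 16 and 26 of the NaIO3 library, with the number of cells in brackets; bars are exact Poisson 95% intervals and open triangles mark 0 UMIs, drawn at the level of 3 counts. Timp1 and Mmp14 step down over the matrix-rich cluster, cluster 13 and the rest, Mmp9 and Plat are high in the matrix-rich cluster alone, and Timp3 runs the other way.

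RPE-like cells were compared between NaIO3 and PBS. Timp3, the member best known from this tissue, stood at 4015 CPM in NaIO3 and 4108 CPM in PBS, a ratio of 0.977 (0.968 to 0.987), and at least 1 UMI was found in 100% of the NaIO3 and 99.9% of the PBS cells. Timp2 stood at 354 CPM in NaIO3 and 302 CPM in PBS, a ratio of 1.17 (1.13 to 1.21). The levels of both inhibitors thus differed by far less than 2-fold between the libraries. Of the 8 members measured, 3 were higher by 2-fold or more (Timp1, Mmp9 and Mmp2) and 0 were lower, where 8.52% of 13422 genes were higher and 2.92% lower. The median log2 ratio was 0.50 for the members and 0.07 for all genes.

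All 3 of these members stood at low levels in RPE-like cells, close to those of cell types of the same library with no link to the RPE. Timp1 had 153 UMIs and 10.8 CPM in NaIO3, against 9 UMIs and 0.260 CPM in PBS, a ratio of 41.4 (21.3 to 92.3). In the NaIO3 library, however, Timp1 stood at 8.73 CPM in surface epithelium-like cells, 8.40 CPM in macrophage-like cells and 10.7 CPM in dendritic-like cells (2 UMIs), and their intervals overlap that of the RPE-like cells. After thinning, a Timp1 UMI was found in 4.08% of RPE-like and 4.62% of surface epithelium-like NaIO3 cells. Mmp9 had 39 UMIs and 2.74 CPM in NaIO3, against 2 UMIs and 0.0577 CPM in PBS, a ratio of 47.5 (12.3 to 406). Surface epithelium-like cells of the NaIO3 library had 3.37 CPM of Mmp9. Mmp2 had 47 UMIs on both sides, that is 3.31 CPM in NaIO3 and 1.36 CPM in PBS, a ratio of 2.44 (1.59 to 3.73), and surface epithelium-like NaIO3 cells had 4.24 CPM. Free RNA that leaks from broken cells enters every droplet, and its share was put at 16.0% of the UMIs of RPE-like cells in NaIO3 and 19.8% in PBS. At those shares, free RNA with the mean make-up of the library would give RPE-like cells 8.98 CPM of Timp1, 1.97 CPM of Mmp9 and 2.66 CPM of Mmp2 in NaIO3, and 0.242 CPM of Timp1, 0.0251 CPM of Mmp9 and 1.40 CPM of Mmp2 in PBS. At this depth the Timp1, Mmp9 and Mmp2 levels of RPE-like cells could not be told apart from those of surface epithelium-like cells of the same library, and the part of free RNA in them was not tested.

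The remaining members were under 2-fold in RPE-like cells. Mmp14 stood at 4.08 CPM in NaIO3 and 2.63 CPM in PBS, a ratio of 1.55 (1.10 to 2.18), below the 6.05 CPM that free RNA would give in NaIO3. Plat stood at 3.66 CPM in NaIO3 and 2.86 CPM in PBS, a ratio of 1.28 (0.897 to 1.81), and Mmp3 at 1.20 CPM in NaIO3 and 1.5 CPM in PBS, a ratio of 0.797 (0.432 to 1.40). The intervals of the Plat and Mmp3 ratios include 1. Plau had 7 UMIs in NaIO3 and 0 UMIs in PBS, too few to be measured. At a coarser clustering (Leiden resolution 0.5), which left 115 RPE-like cells in NaIO3, 1 member in place of 3 was past 2-fold.

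**Figure D4:**
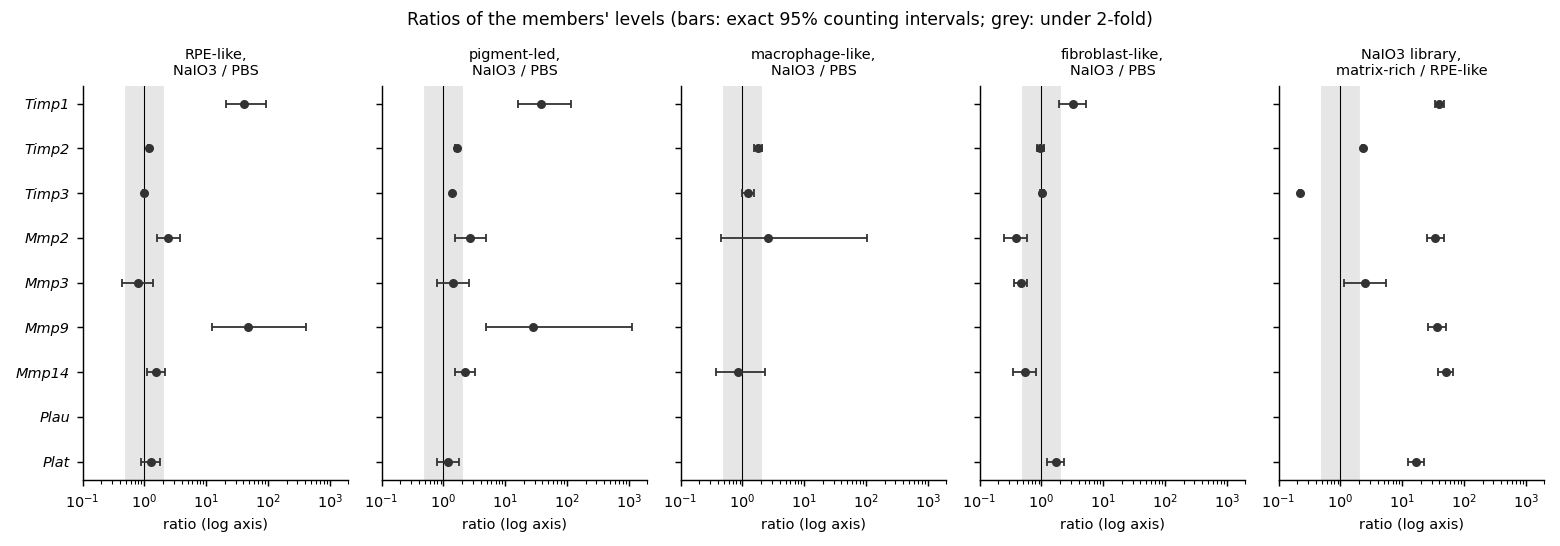
Ratio of each member's level (horizontal axis, logarithmic) for NaIO3 over PBS in 4 cell classes and for the matrix-rich cluster over RPE-like cells in the NaIO3 library; bars are exact 95% counting intervals, the grey band is under 2-fold, and members with under 20 counts or with 0 on 1 side are not drawn. Timp3 lies near 1 in RPE-like and fibroblast-like cells (0.977 and 1.02) and at 0.224 in the matrix-rich cluster over RPE-like cells.

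In pigment-led cells, all 8 measured members had a ratio of NaIO3 over PBS above 1, and for 4 of them (Timp1, Mmp2, Mmp9 and Mmp14) it was 2-fold or more. Of 12454 genes, 70.6% had a ratio above 1, and 15.3% were higher and 1.81% lower by 2-fold or more. The median log2 ratio was 0.92 for the members and 0.29 for all genes. Timp1 had 341 UMIs and 26.0 CPM in NaIO3, against 5 UMIs and 0.681 CPM in PBS, a ratio of 38.1 (16.2 to 118). Free RNA would give pigment-led cells 11.6 CPM of Timp1, 7.80 CPM of Mmp14, 3.43 CPM of Mmp2 and 2.54 CPM of Mmp9 in NaIO3. The main cluster 1 was below that for Timp1 (10.2 CPM) and Mmp14 (5.51 CPM), and the part of free RNA in these ratios was not tested. Cluster 13, with 225 of those 341 UMIs in 90 of the 1291 cells, set much of this level. Without cluster 13 the log2 ratio of Timp1 was 3.77 in place of 5.12, that of Mmp14 was 0.14 in place of 1.13, and 3 members in place of 4 were past 2-fold. Mmp14 stood at 10.8 CPM in NaIO3 and 4.91 CPM in PBS, a ratio of 2.20 (1.52 to 3.27), and it kept to that side of 2-fold in 5 of 13 alternatives. Its log2 ratio was -0.10 with no doublet removal. Mmp2 stood at 5.86 CPM in NaIO3 and 2.18 CPM in PBS, a ratio of 2.69 (1.56 to 4.94), and Mmp9 had 51 UMIs in NaIO3 and 1 in PBS, a ratio of 28.5 (4.89 to 1147). Timp2 stood at 514 CPM in NaIO3 and 314 CPM in PBS, a ratio of 1.64 (1.56 to 1.72), and Timp3 at 5316 CPM in NaIO3 and 3815 CPM in PBS, a ratio of 1.39 (1.37 to 1.41). The direction of Timp3 turned when all variable genes formed the clusters, with a log2 ratio of -0.62, and at a mitochondrial limit of 10%, with -0.09. Plat (5.63 CPM in NaIO3 and 4.77 CPM in PBS) and Mmp3 (3.27 CPM in NaIO3 and 2.32 CPM in PBS) had ratios of 1.18 (0.780 to 1.82) and 1.41 (0.789 to 2.64). Their direction was not stable, since Plat kept it in 8 of 12 alternatives and Mmp3 in 9 of 13.

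In macrophage-like cells the comparison is limited by the 34 PBS cells with 173317 UMIs in all. A cluster of 17 NaIO3 and 69 PBS cells, number 14, had macrophage genes as its best marker set but was led by MHC class II genes and was left unnamed, and the values with it counted in are given at the end of the paragraph. Timp2 stood at 1685 CPM in NaIO3 and 946 CPM in PBS, a ratio of 1.78 (1.53 to 2.09). Macrophage-like cells had the highest Timp2 level of the classes in NaIO3, while in PBS their interval overlapped that of fibroblast-like cells. Timp3 stood at 542 CPM in NaIO3 and 444 CPM in PBS, near the 596 and 509 CPM of surface epithelium-like cells in NaIO3 and PBS. Timp1 had 52 UMIs and Plau 43 UMIs in NaIO3, against 0 UMIs of either in PBS. A count of 3 would already be 17.3 CPM in PBS, more than the 8.40 CPM of Timp1 and 6.95 CPM of Plau in NaIO3, so no direction can be read. With 0.5 added to each count these were the 2 members of 6 past 2-fold (Mmp2, with 1 PBS UMI, was at a log2 ratio of 0.80), where 11.5% of 10165 genes were higher and 19.0% lower. With genes at 0 on 1 side taken at their bound, 0 members and 4.10% of genes were higher. Mmp14 stood at 29.1 CPM in NaIO3 and 34.6 CPM in PBS (6 UMIs), a ratio of 0.840 (0.378 to 2.32), and Mmp2 at 15 CPM in NaIO3 and 5.77 CPM in PBS (1 UMI), a ratio of 2.60 (0.456 to 104). In the NaIO3 library, free RNA would give macrophage-like cells 5.39 CPM of Mmp14, 2.37 CPM of Mmp2 and 8.0 CPM of Timp1, so that Mmp14 and Mmp2 stood above it and Timp1 was close to it. With cluster 14 counted in, a choice made after seeing the data, 474 NaIO3 and 103 PBS cells gave 1664 CPM of Timp2 in NaIO3 and 707 CPM in PBS, a ratio of 2.35 (2.11 to 2.63). Plau then stood at 6.84 CPM in NaIO3 and 8.2 CPM in PBS (4 UMIs), a ratio of 0.834 (0.303 to 3.20). Mmp2 had 93 UMIs in NaIO3 and 1 in PBS, a ratio of 7.21 (1.26 to 288), and Mmp14 a ratio of 0.656 (0.420 to 1.07). Timp1, close to free RNA in NaIO3, had 53 and 0 UMIs, with a lower bound of 1.08 on its ratio. Timp3 turned to a ratio of 0.851 (0.758 to 0.959). Of the 233 Timp3 UMIs in the PBS cells of cluster 14, however, 1 cell held 57. Free RNA would give macrophage-like cells 423 CPM of Timp3 in NaIO3 and 463 CPM in PBS.

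Within the NaIO3 library, the 2 macrophage-like clusters differed in the members. Cluster 5 (290 cells) was led by Spp1 with C1qa, Fcrls and Igf1, and cluster 7 (167 cells) by Lyz2 and Ms4a7. Timp2 stood at 2067 CPM in cluster 5 and 1007 CPM in cluster 7, a ratio of 2.05 (1.96 to 2.15). Mmp14 ran the other way, with 13.1 CPM in cluster 5 and 57.5 CPM in cluster 7, a ratio of 0.228 (0.162 to 0.317). Plau had 6.56 CPM in cluster 5 and 7.64 CPM in cluster 7, a ratio of 0.859 (0.449 to 1.69) whose interval includes 1. Over both clusters Plau stood at 6.95 CPM (5.03 to 9.36) in NaIO3, against 2.60 CPM (1.35 to 4.55) in the matrix-rich cluster and 1.25 CPM (0.598 to 2.29) in surface epithelium-like cells.

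Fibroblast-like cells had the highest Mmp3 level of the classes in each library, and Mmp9 was at 0 UMIs in them on both sides. Of the 7 measured members, Timp1 was higher and Mmp2 and Mmp3 lower in NaIO3 by 2-fold or more, where 5.23% of 8713 genes were higher and 5.44% lower. The median log2 ratio was -0.05 for the members and 0.05 for all genes. Timp1 stood at 78.3 CPM in NaIO3 (31 UMIs) and 24.4 CPM in PBS (37 UMIs), a ratio of 3.21 (1.93 to 5.31), but 3 NaIO3 cells held 50% of its UMIs and 1 cell held 32.3%. Free RNA would give 11.9 CPM of Timp1 in NaIO3 and 0.238 CPM in PBS. Plat stood at 152 CPM in NaIO3 and 88.4 CPM in PBS, a ratio of 1.71 (1.24 to 2.34), and Mmp14 at 65.7 CPM in NaIO3 and 119 CPM in PBS, a ratio of 0.550 (0.350 to 0.833). Both differed by cluster. In cluster 11, Mmp14 stood at 201 CPM in NaIO3 (14 cells) and 185 CPM in PBS, and Plat at 327 and 96.5 CPM. In clusters 17, 18 and 19 Mmp14 was lower in NaIO3, on 9, 1 and 0 UMIs. Plat in NaIO3 and PBS stood at 154 and 102 CPM in cluster 17, 117 and 114 CPM in 18, and 21.7 and 51.2 CPM in 19. Timp2 (742 CPM in NaIO3 and 769 CPM in PBS) and Timp3 (2907 CPM in NaIO3 and 2849 CPM in PBS) had ratios of 0.966 (0.847 to 1.10) and 1.02 (0.955 to 1.09).

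The lower Mmp3 and Mmp2 levels moved with the make-up of the class. Mmp3 stood at 202 CPM in NaIO3 (80 UMIs) and 438 CPM in PBS (665 UMIs), a ratio of 0.461 (0.361 to 0.582). Of the 665 PBS UMIs, 558 came from cluster 30, which held 25 PBS cells and 0 NaIO3 cells and was led by genes such as Angptl7 and Matn4. Its Mmp3 level was 5120 CPM (4704 to 5563) and its Mmp2 level 1046 CPM (863 to 1257). Over the clusters with at least 5 cells of each library, which leaves cluster 30 out, the log2 ratio of Mmp3 was 1.41 in place of -1.11 and that of Mmp2 was -0.62 in place of -1.35. In cluster 18, the other one rich in Mmp3, the level was 1022 CPM in 10 NaIO3 cells and 413 CPM in 48 PBS cells, and 2 NaIO3 cells held 50% of all fibroblast-like Mmp3 UMIs of their library. Mmp2 in cluster 18 stood at 175 CPM in NaIO3 and 185 CPM in PBS. The direction of Mmp3 in fibroblast-like cells therefore differs with the clusters counted, and 44 NaIO3 cells cannot settle it.

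**Figure D5:**
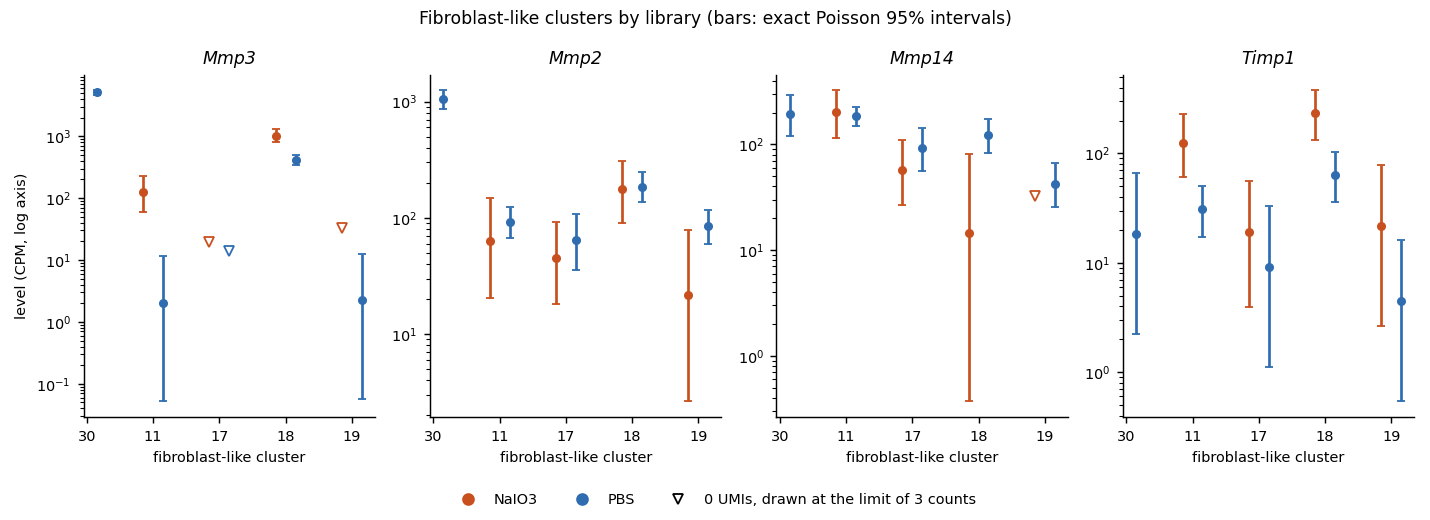
Level of 4 members (vertical axis, CPM, logarithmic) in the 5 fibroblast-like clusters (horizontal axis), NaIO3 in orange to the left of PBS in blue; bars are exact Poisson 95% intervals and open triangles mark 0 UMIs, drawn at the level of 3 counts. Cluster 30 has PBS cells only and stands at 5120 CPM of Mmp3 and 1046 CPM of Mmp2; in cluster 18 Mmp3 is at 1022 CPM in NaIO3 and 413 CPM in PBS.

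Outside these classes, several members had levels above the mean of their library, and no free RNA share was estimated for these cells. Muller glia-like cells of the NaIO3 library (46 cells, against 3 in PBS) had 207 CPM of Timp1 (165 to 257), 114 CPM of Plat (82.9 to 152) and 85.8 CPM of Mmp14 (59.4 to 120). Their Timp1 level was below that of the matrix-rich cluster and above that of fibroblast-like cells, with no overlap of the intervals. Surface epithelium-like cells had 50.5 CPM of Mmp14 in NaIO3 and 65.6 CPM in PBS. In PBS, endothelial-like cells had 80.2 CPM of Plat (48.3 to 125) and 42.2 CPM of Mmp2 (20.3 to 77.6), and the Plat interval overlaps that of the fibroblast-like cells. The 69 PBS cells of the unnamed cluster 14 held 3 of the 6 Mmp9 UMIs and 4 of the 5 Plau UMIs of that library.

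Among the 8 NaIO3 classes with at least 20 cells, neighbours in the order of levels had intervals that did not overlap at 6 of 7 places for Timp3, 4 for Timp1 and for Timp2, 3 for Mmp14, 2 for Mmp2 and for Plat, and 1 for Mmp3, Mmp9 and Plau. For Timp1 in NaIO3 it ran from the matrix-rich cluster through Muller glia-like, fibroblast-like and pigment-led cells to RPE-like cells with no overlap between neighbours, and below that the classes overlapped. For Timp2 in NaIO3, macrophage-like cells came before the matrix-rich cluster, whose interval overlaps that of fibroblast-like cells (742 CPM). For Timp3, pigment-led cells came before RPE-like cells in NaIO3 and after them in PBS, with fibroblast-like cells lower in both. For Mmp14 in NaIO3, the matrix-rich cluster stood apart at the top, and the intervals of Muller glia-like, fibroblast-like and surface epithelium-like cells overlapped their neighbours. For Plat in NaIO3, fibroblast-like and Muller glia-like cells overlapped at the top, above the matrix-rich cluster.

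The wider pathway was read from 5 lists, and their counts are given with no test. The matrix substrates, unlike the other lists, were not left out of the clustering, so their counts are a description. In the matrix-rich cluster over RPE-like cells, 5 of 7 other measured MMPs were higher by 2-fold or more and 0 lower, beside 24.5% of all genes higher and 11.7% lower. Mmp23, a membrane-anchored MMP, stood at 138 CPM in the matrix-rich cluster and 2.46 CPM in RPE-like cells, a ratio of 55.9 (39.7 to 80.9). Of the ADAM and ADAMTS proteinases, 11 of 16 were higher and 1, Adam23, was lower (4.56 CPM in the matrix-rich cluster and 19.9 CPM in RPE-like cells). Of 13 measured MMP regulators, 6 were higher and 3 lower. The lower ones were Reck, a membrane-anchored inhibitor of MMPs, Spock1 and Bsg. Bsg (basigin, a cell-surface inducer of MMPs) stood at 1943 CPM in the matrix-rich cluster and 4717 CPM in RPE-like cells, and Spock1 at 17.6 and 95.2 CPM. Of 11 genes of the plasminogen system 7 were higher, and F3 (tissue factor) was lower, with 27.3 CPM in the matrix-rich cluster and 121 CPM in RPE-like cells. Of 29 matrix substrates 24 were higher and 2 lower, with Col1a1 at 795 CPM in the matrix-rich cluster and 8.80 CPM in RPE-like cells, Fn1 at 1343 and 20.8 CPM, Col1a2 at 1399 and 22.0 CPM, and Vcan at 25.8 and 0.422 CPM. Vtn (vitronectin) was lower, at 6.51 CPM in the matrix-rich cluster and 24.3 CPM in RPE-like cells. The median log2 ratios were 2.65 for the other MMPs, 1.36 for ADAM and ADAMTS, 0.70 for the regulators, 1.55 for the plasminogen system and 2.90 for the substrates, beside 0.32 for all genes.

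In RPE-like cells, NaIO3 against PBS, the plasminogen system had 5 of 10 measured genes higher by 2-fold or more and 1 lower, beside 8.52% of all genes higher and 2.92% lower, with a median log2 ratio of 1.09. Anxa2, a subunit of a cell-surface receptor for Plat and plasminogen, stood at 121 CPM in NaIO3 and 34.5 CPM in PBS, a ratio of 3.50 (3.25 to 3.77). F3 stood at 121 CPM in NaIO3 and 162 CPM in PBS. Of the other MMPs 2 of 9 were higher, of ADAM and ADAMTS 2 of 11, and of the regulators 2 of 13, with 0 lower in each of these 3 lists. Cd44, which can hold MMP9 at the cell surface, stood at 7.04 CPM in NaIO3 and 0.491 CPM in PBS. Of 28 matrix substrates 7 were higher and 3 lower. Spp1 (osteopontin) stood at 1179 CPM in NaIO3 and 2.89 CPM in PBS, Fn1 at 20.8 and 1.07 CPM and Col1a2 at 22.0 and 6.27 CPM, while Dcn stood at 9.43 and 30.1 CPM, Lum at 2.39 and 8.32 CPM, and Vtn at 24.3 and 34.9 CPM. Adam22 stood at 2.81 CPM in NaIO3 and 5.46 CPM in PBS. Several of these are high in other classes of the same library, such as Spp1 with 51249 CPM in macrophage-like and Dcn with 9235 CPM in fibroblast-like cells of NaIO3, and the part of free RNA in their levels was not tested gene by gene.

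In pigment-led cells, the plasminogen system had 6 of 10 genes higher by 2-fold or more (median log2 ratio 1.62), the other MMPs 2 of 7, ADAM and ADAMTS 4 of 11, the regulators 3 of 13 and the substrates 12 of 27 with 2 lower, beside 15.3% of all genes higher and 1.81% lower. The regulators were near the share of all genes. Spp1 stood at 1480 CPM in NaIO3 and 2.59 CPM in PBS, Fn1 at 26.9 and 0.681 CPM, Cd44 at 19.3 and 0.681 CPM, Bgn (biglycan) at 71.4 and 12.8 CPM, and Tnc (tenascin C) at 10.6 and 1.5 CPM. Dcn was lower, at 15.8 CPM in NaIO3 and 36.4 CPM in PBS. Bsg (4428 CPM in NaIO3 and 5355 CPM in PBS), Plgrkt, a plasminogen receptor (26.7 and 35.7 CPM), F3 (162 and 179 CPM) and Vtn (33.3 and 39.7 CPM) were lower by less than 2-fold. The free RNA share of pigment-led cells was put at 20.6% in NaIO3 and 22.8% in PBS. Spp1 stood at 61435 and 33114 CPM in the macrophage-like clusters 5 and 7 of NaIO3. The part of free RNA in the levels named here was not tested gene by gene.

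In macrophage-like cells the other MMPs had 1 of 4 higher and 2 lower. Mmp12, macrophage elastase, stood at 38.9 CPM in NaIO3 and 323 CPM in PBS (56 UMIs), a ratio of 0.120 (0.0898 to 0.164), and all 56 PBS UMIs came from 7 of the 16 PBS cells of cluster 7. In that cluster Mmp12 stood at 53.0 CPM in NaIO3, with 118 UMIs in 9 of 167 cells, and at 650 CPM in PBS. Spp1 stood at 51249 CPM in NaIO3 and 2758 CPM in PBS, Thbs1 at 250 and 69.2 CPM, Anxa2 at 247 and 86.5 CPM and Serpine2, an inhibitor of plasminogen activators, at 454 and 277 CPM. Fn1 had 383 UMIs in NaIO3 and 0 in PBS, while Sparc stood at 457 CPM in NaIO3 and 1223 CPM in PBS, and Adamts1 at 23.6 and 63.5 CPM. Over the lists, ADAM and ADAMTS had 2 of 8 higher and 1 lower, the regulators 3 of 9 higher, the plasminogen system 2 of 8 higher, and the substrates 3 of 20 higher and 5 lower, beside 11.5% of all genes higher (4.10% with zeros at their bound) and 19.0% lower. The substrates were near those shares.

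In fibroblast-like cells the named substrates were split. Spp1 stood at 2583 CPM in NaIO3 and 249 CPM in PBS, Eln (elastin) at 306 and 144 CPM, and Col18a1 at 149 and 64.6 CPM, while Lum stood at 634 and 1744 CPM, Col1a1 at 402 and 969 CPM, Col1a2 at 770 and 1480 CPM, and Sparc at 1854 and 3211 CPM. The free RNA share of fibroblast-like cells was put at 21.1% in NaIO3 and 19.4% in PBS. The macrophage marker C1qa stood at 407 CPM in these NaIO3 cells and 27.0 CPM in the PBS cells. The part of free RNA in the Spp1 level was not tested. The procollagen enhancer Pcolce2 stood at 20.2 CPM in NaIO3 and 103 CPM in PBS. Mmp12 had 32 UMIs in NaIO3 and 0 in PBS, but they lay in 2 cells, 1 of which held 26. Lcn2, a lipocalin that binds MMP9 in humans, had 28 UMIs in NaIO3 and 2 in PBS. The lists gave 1 of 2 other MMPs higher, 2 of 9 ADAM and ADAMTS higher, 1 of 13 regulators higher and 1 lower, 0 of 7 plasminogen genes past 2-fold, and 3 of 28 substrates higher and 3 lower, beside 5.23% of all genes higher and 5.44% lower. The regulators were near those shares.

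The genes whose levels were most like each member's over the 35 units of cluster and library with at least 20 cells are given by Pearson's r of log2(CPM + 5), as a description. The units share 2 libraries, and 1 cluster can set a high r. Timp1 was nearest to Bmp1 (r = 0.895), Htra1 and Aebp1, and Mmp9 to Cdkn2a (r = 0.882), Defb48 and Cdh15. Mmp2 was nearest to Gxylt2 (r = 0.929), Steap3 and Srpx, Mmp14 to Ckap4 (r = 0.907), Myl12a and Tpm4, and Plat to Itm2a (r = 0.889), Zcchc24 and Plpp3. Timp3 was nearest to Bsg (r = 0.912), Sulf1 and Mut, Timp2 to Fuca1 (r = 0.863), Itgb5 and Rpn2, and Mmp3 to Angptl7 (r = 0.936), Matn4 and Cpz. Among the members themselves, Mmp2 and Mmp3 were the most alike (r = 0.72), then Mmp2 and Plat (r = 0.69), and Timp3 and Mmp14 the least (r = -0.38). Plau was too scarce for this measure.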

How the data were processed

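Droplet single-cell RNA was measured in 2 libraries, NaIO3 and PBS, of 6 pooled mice each. The authors deposited whole-number UMI counts, not normalized. Per the submitters' processing notes Cell Ranger 3.0.2 and mm10 were used. Strand handling and gene annotation release: not given in the sources used here. Only barcodes called as cells are in the matrices, with between 4217 and 76174 UMIs per barcode in NaIO3 and between 2979 and 63062 in PBS.

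A minimum of 500 genes and a ceiling of 25% mitochondrial counts took out 114 barcodes in NaIO3 and 231 in PBS. The highest Scrublet scores were removed as doublets in proportion to the number of barcodes, 132 in NaIO3 and 171 in PBS. The 8028 cells were scaled to 10000 counts, log-transformed and clustered without integration in scanpy 1.11.5 (2000 variable genes, of which 1972 remained after the members and 4 pathway lists were taken out, 30 principal components, 15 neighbours, Leiden resolution 1), giving 34 clusters. Counts were summed per class and library and divided by the class total (CPM). Levels have exact Poisson, ratios exact conditional binomial and shares exact Clopper-Pearson 95% intervals, which cover counting error only. With 1 library per group no test was made. Log2 ratios used 0.5 added to each count, a gene was measured with at least 20 counts over both sides, and the call was 2-fold. The ratio script was checked on simulated counts.

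The free RNA share of a class was estimated from genes of other classes. Coordinates are from GENCODE M21 on GRCm38, where 27645 of the 27998 rows matched by identifier. The members and lists were chosen with earlier results of these data known. All members are named; of the lists, the 5 highest and 5 lowest genes per comparison by the interval bound nearest to 1, among genes with at least 100 counts on 1 side (20 in fibroblast-like cells), and 3 genes per member by likeness. The genes named beside clusters, in the promoter search and as markers, and Mmp12 within clusters, were chosen after their values were seen. The alternatives were other clusterings, scalings (edgeR 4.0.16 for TMM), filters and subtraction of free RNA. The alternatives that leave out clusters 13 or 30, keep the largest pigment-led cluster of each library, count in cluster 14, or take genes at 0 at their bound, were chosen after seeing the data.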

Additional observations from a re-analysis of the deposited data

Results flagged for a closer look

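Mmp2 moved in opposite directions between cell classes. The log2 ratio of NaIO3 over PBS was 1.29 in RPE-like cells and 1.39 in pigment-led cells, against -1.35 in fibroblast-like cells. The difference was not tested, since each class has 1 library per group. The RPE-like and pigment-led levels (3.31 and 5.86 CPM in NaIO3) are near the 4.24 CPM of surface epithelium-like cells, and without the PBS cluster 30 the fibroblast-like log2 ratio was -0.62.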

How the results depend on the processing

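The number of members past 2-fold in the matrix-rich cluster over RPE-like cells was between 6 and 9 over 12 alternatives (8 as reported), and in fibroblast-like cells between 2 and 4 over 13 (3 as reported). In RPE-like cells it was 3 as reported, 1 at Leiden resolution 0.5 and 5 with free RNA subtracted. In pigment-led cells it was 4 as reported and 2 at a mitochondrial limit of 10%. In macrophage-like cells it was 2 as reported, 0 with all variable genes, at Leiden resolution 1.5, at a mitochondrial limit of 10% and with genes at 0 taken at their bound, and 4 with TMM scaling or the median of all genes set to 0. Of the list genes in RPE-like cells 22 were past 2-fold, and 37 with no minimum count. The TMM shift, which is subtracted from the log2 ratios, was -0.295 in macrophage-like cells and so raised their ratios. It was 0.401 for the matrix-rich cluster over RPE-like cells and so lowered those ratios.

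The log2 ratio of Timp3 in RPE-like cells, -0.03 as reported, turned to 0.24 (all variable genes), 0.0079 (free RNA subtracted), 0.0537 (cells weighted equally) and 0.19 (pigment-led cells counted in). In pigment-led cells Timp3 (0.48 as reported) turned to -0.62 with all variable genes and -0.0947 at a mitochondrial limit of 10%, and Mmp14 (1.13) to -0.10 with no doublet removal. Mmp14 in RPE-like cells (0.64) turned to -4.63 with free RNA subtracted, since the subtracted level exceeded the measured one. Mmp3 in fibroblast-like cells (-1.11) turned to 1.41 without cluster 30, which holds PBS cells only. For the others the cause was not tested. Leiden resolution 0.5 gave no pigment-led PBS cells and so no value there. Timp1 in RPE-like cells stayed between 4.72 and 6.18, and Mmp9, with 2 UMIs in PBS, between 3.99 and 7.62. Free RNA would give 8.98 of the 10.8 CPM of Timp1 in NaIO3 and 0.242 of the 0.260 CPM in PBS, and its part was not tested. No paired analysis was possible because each group has 1 library. The 34 macrophage-like PBS cells and 44 fibroblast-like NaIO3 cells limit those comparisons most.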
